A study of Mus musculus with 6 samples.

Results

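The transcripts described here are those of 10 immediate early genes, a class of genes that cells switch on within minutes of a stimulus without first making new protein. The members were the rows of the kidney count table with the symbols Fos, Fosb, Jun, Junb, Egr1, Atf3, Ier2, Dusp1, Zfp36 and Nr4a1. All 10 were among the 34714 rows, and all 10 were among the 18927 genes that passed the filter on low counts. They were chosen by their levels in these wild-type and knockout libraries, so the difference between the groups is given as a description and supports nothing.

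RNA sequencing was carried out on kidneys of male mice taken 10 days after ligation of the left ureter (unilateral ureteral obstruction, UUO), an operation after which the kidney scars. The wild-type group held 3 libraries from C57BL/6J mice. The knockout group held 3 libraries from miR-92b-/- mice (the purchased strain C57BL/6JGpt- Mir-92bem22Cd549/Gpt), in which the gene of the microRNA miR-92b is deleted in the whole body. The strain names of the groups differ, so the deletion and the strain background cannot be told apart here. Mice of both groups were 8 weeks old and underwent the operation under pentobarbital. The rows analysed here held 0 microRNA genes, so the deletion was not checked in the libraries. The treatment protocol calls the ligated kidneys nonfibrotic controls, which goes against the treatment label. No sham-operated kidney was analysed here. The labels do not say that replicates are separate animals, so the spread between libraries may be technical.

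The Fos and Jun proteins pair through a leucine zipper to form AP-1, a transcription factor that binds DNA as a dimer and follows mitogen, stress and injury signals carried by MAP kinases. Signals reach the promoters of immediate early genes largely through serum response factor (SRF), which binds the CArG box, and through CREB, which binds the cAMP response element (CRE). The transcripts are short-lived, and several of the proteins, among them Dusp1 and Zfp36, shut the response down again. In the kidney these genes are known to be induced by ischaemia, stretch of the tubule and handling of the tissue.

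Promoter sequences from RefSeq (GRCm38.p6) were found for 8 of the 10 members, each covering 250 bases before to 50 bases after an annotated start. That start is the end of the RefSeq locus for 6 of them, and lies 73 bases inside the locus for Fosb and 12944 bases inside it for Nr4a1. Those of Ier2 and Egr1 are not shown. A few windows are printed because they hold the elements through which immediate early genes are known to be switched on, which the choice of the members did not use. Capitals mark matches, on either strand, to the CArG box, the CRE (TGACGTCA), the CRE core (TGACG, counted also inside a CRE), the AP-1 site (TGACTCA) and the TATA box (TATAAA). The core on the other strand reads CGTCA. The windows are Fos at chr12:85473640-85473939 (plus strand), Dusp1 at chr17:26508423-26508722 (minus strand), Nr4a1 at chr15:101266596-101266895 (plus strand) and Zfp36 at chr7:28379179-28379478 (minus strand), each read along the strand of its gene.
Fos: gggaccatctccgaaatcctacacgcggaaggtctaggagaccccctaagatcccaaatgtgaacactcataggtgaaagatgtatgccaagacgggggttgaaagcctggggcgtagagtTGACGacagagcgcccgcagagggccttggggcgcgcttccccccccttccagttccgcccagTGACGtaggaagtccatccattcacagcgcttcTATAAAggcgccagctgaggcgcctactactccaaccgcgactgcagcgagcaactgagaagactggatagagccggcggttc
Dusp1: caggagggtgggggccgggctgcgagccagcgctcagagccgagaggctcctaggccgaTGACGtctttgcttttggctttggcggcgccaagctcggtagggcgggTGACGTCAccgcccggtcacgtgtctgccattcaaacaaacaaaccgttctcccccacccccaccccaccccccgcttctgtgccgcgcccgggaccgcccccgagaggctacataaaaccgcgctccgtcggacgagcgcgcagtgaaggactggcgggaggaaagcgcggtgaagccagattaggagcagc
Nr4a1: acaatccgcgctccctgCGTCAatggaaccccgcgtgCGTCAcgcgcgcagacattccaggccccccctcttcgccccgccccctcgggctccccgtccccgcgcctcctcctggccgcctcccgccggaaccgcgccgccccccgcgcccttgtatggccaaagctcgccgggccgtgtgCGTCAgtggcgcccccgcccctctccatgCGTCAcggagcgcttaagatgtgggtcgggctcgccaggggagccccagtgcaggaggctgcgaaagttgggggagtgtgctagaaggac
Zfp36: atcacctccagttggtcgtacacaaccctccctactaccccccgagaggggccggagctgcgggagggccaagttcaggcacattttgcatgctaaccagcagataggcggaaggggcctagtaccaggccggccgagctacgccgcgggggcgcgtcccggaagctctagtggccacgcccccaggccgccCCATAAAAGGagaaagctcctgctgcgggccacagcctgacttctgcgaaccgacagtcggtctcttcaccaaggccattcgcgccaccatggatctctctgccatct

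A CRE core lay in 6 of the 8 windows (Fos, Fosb, Junb, Atf3, Dusp1 and Nr4a1), and in 20.8% of all 32851 promoter windows of the same length. Fos held 2 cores, the nearer at positions -66 to -62 from the start, beside a TATA box at -33 to -28. Dusp1 held the only complete CRE of the 8 windows, at -143 to -136, and 1.79% of all windows held one. Nr4a1 held 4 cores and Zfp36 a CArG box at -58 to -49, an element found in 1.63% of all windows. The letters of a TATA box stood in the windows of Fos and Junb (13.6% of all windows). In Junb these letters lay at positions 1 to 6, on the annotated start itself and not before it as in Fos. The AP-1 site was in 0 of the 8 windows and in 5.20% of all windows, and the Jun window held none of the 5 motifs. These are matches of letters, and elements outside the windows were not searched.

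Fosb and Fos had the largest differences of the 10 members. Fos, the founding subunit that needs a Jun partner to bind DNA, was at 63.5, 84.4 and 377 CPM in the wild-type libraries and at 17.9, 16.1 and 13.3 CPM in the knockout libraries. CPM are counts scaled to the size of the library after TMM normalisation. Every knockout library lay below every wild-type library, and wild-type replicate 3 stood far above the other 5 libraries. The group means were 175 ± 175 CPM and 15.8 ± 2.33 CPM (SD, n = 3 each), and the log2 fold change, as knockout over wild type, was -3.47 ± 0.69 (SE). Fosb, a second Fos subunit, was at 7.62, 15.5 and 139 CPM in the wild type and at 3.10, 6.76 and 1.17 CPM in the knockout. Its groups did not overlap either, although knockout replicate 2 came close to wild-type replicate 1. Fosb had a log2 fold change of -3.88 ± 1.19, with means of 54.0 ± 73.7 and 3.68 ± 2.84 CPM.

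The Jun subunits, which bind DNA as homodimers or with a Fos partner, differed less. Jun was at 235, 248 and 389 CPM in the wild type and at 179, 190 and 180.3 CPM in the knockout, with a log2 fold change of -0.67 ± 0.22. Junb, which acts on many promoters as a weaker activator than Jun, was at 215, 188 and 373 CPM and at 146, 153 and 144 CPM, a log2 fold change of -0.81 ± 0.26. In both genes all knockout libraries lay below all wild-type libraries and close together. The highest knockout library exceeded the lowest 1.06-fold for Jun and 1.06-fold for Junb, whereas the wild-type libraries spanned 1.66-fold and 1.98-fold.

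Among the other transcription factors, Egr1, a zinc finger protein induced through SRF, showed the clearest separation. It was at 178, 234 and 635 CPM in the wild type and at 124, 88.1 and 59.7 CPM in the knockout, with a log2 fold change of -1.94 ± 0.50. Atf3, a stress-induced partner of Jun proteins that often represses, did not separate the groups. It was at 25.9, 56.0 and 219 CPM in the wild type and at 41.5, 43.4 and 22.1 CPM in the knockout. Wild-type replicate 1 lay below knockout replicates 1 and 2, and the log2 fold change of Atf3 was -1.49 ± 0.72. Nr4a1, an orphan nuclear receptor, was at 30.0, 60.6 and 148 CPM and at 12.9, 35.7 and 15.8 CPM. Knockout replicate 2 exceeded wild-type replicate 1, and the log2 fold change of Nr4a1 was -1.89 ± 0.62.

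Of the members that are not AP-1 subunits or known DNA-binding factors, 2 encode brakes on the response. Dusp1, a phosphatase that inactivates MAP kinases, was at 106, 107 and 274 CPM in the wild type and at 58.2, 54.2 and 57.5 CPM in the knockout. Zfp36 (tristetraprolin), which binds AU-rich elements and speeds the decay of short-lived messages, was at 100.3, 111 and 267 CPM and at 67.6, 51.6 and 54.7 CPM. The log2 fold changes of these brakes lay close together, at -1.52 ± 0.37 for Dusp1 and -1.46 ± 0.37 for Zfp36, without overlap of the groups. Ier2, a growth-factor-induced nuclear protein, was at 65.6, 48.0 and 117 CPM and at 35.9, 33.6 and 43.6 CPM. Its log2 fold change was -1.03 ± 0.31, again without overlap.

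**Figure D1:**
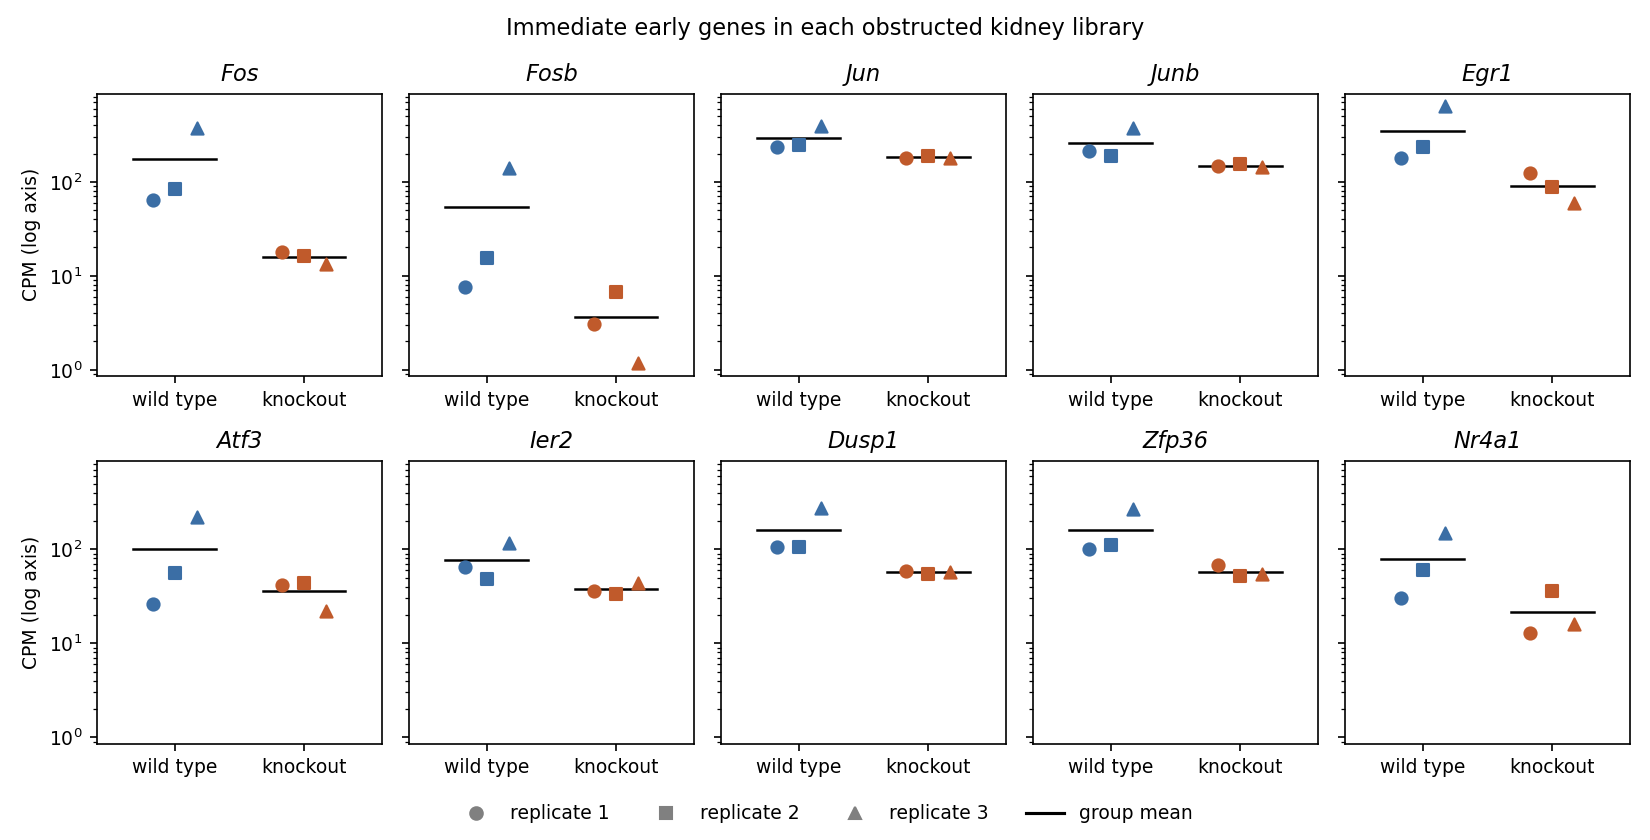
CPM (log axis) of the 10 genes in the 3 wild-type (blue) and 3 knockout (orange) libraries, with the symbol giving the replicate number and the line the group mean. Wild-type replicate 3 is the highest library in all 10 panels, and the groups overlap only for Atf3 and Nr4a1.

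In counts, 10 of the 10 members had a fold change below 0 and 8 had groups without overlap on the lower side. Over all genes tested, 7.2% had groups without overlap on the lower side and 8.95% on the higher side. At an edgeR adjusted p under 0.05, 0 of the 10 members and 0% of all genes were called. At an unadjusted edgeR p under 0.05, 9 of the 10 members were lower, beside 3.52% of all genes lower and 4.38% higher. DESeq2 called 4 members lower at an adjusted p under 0.05, beside 0.148% of all genes lower and 0.18% higher. Since this contrast chose the members, nothing is read from these counts. The members had a median of -1.50 on the log2 scale, and all genes tested had -0.02. In tissue RNA, fewer cells that express a gene and less RNA per cell cannot be told apart.

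Wild-type replicate 3 stood apart in these genes. It was the highest of the 6 libraries for 10 of the 10 members, as for 23.5% of all genes tested, and it exceeded each of the other wild-type libraries more than 2-fold for 7 members, as for 1.66% of all genes. Its excess over the mean of the other wild-type libraries was 12.1-fold for Fosb, the largest such ratio of all 18927 genes tested. For Atf3 and Fos the excess was 5.34-fold and 5.10-fold, and at the other end it was 1.61-fold for Jun. Summed over the 10 members, the libraries held 1026, 1152 and 2938 CPM in the wild type and 687, 672 and 592 CPM in the knockout.

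With wild-type replicate 3 left out, all 10 members still had a fold change below 0, and the same 8 had groups without overlap, beside 16.1% of all genes on the lower side. The differences were smaller, with a median of -0.88 on the log2 scale against 0.0065 for all genes. Fos had the largest, at -2.23 ± 0.19, or 73.9 CPM as the mean of the other wild-type libraries against 15.8 CPM in the knockout, a 4.69-fold ratio. Fosb followed at -1.65 ± 0.68, then Egr1 at -1.18 ± 0.30 and Nr4a1 at -1.07 ± 0.49. Dusp1 was at -0.90 ± 0.11, Zfp36 at -0.86 ± 0.15 and Ier2 at -0.59 ± 0.19. Junb and Jun were at -0.44 ± 0.13 and -0.40 ± 0.13. Atf3 was left at -0.20 ± 0.40, less than its SE from 0, and it turned to 0.05 with replicate 3 of both groups left out. Without wild-type replicate 1 in place of replicate 3, 10 of the 10 members had groups without overlap, Atf3 and Nr4a1 included. That library was the lowest of the wild type for Atf3 and Nr4a1, so leaving it out removed their overlap. The share over all genes was not computed for that subset, and nothing is read from the count.

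**Figure D2:**
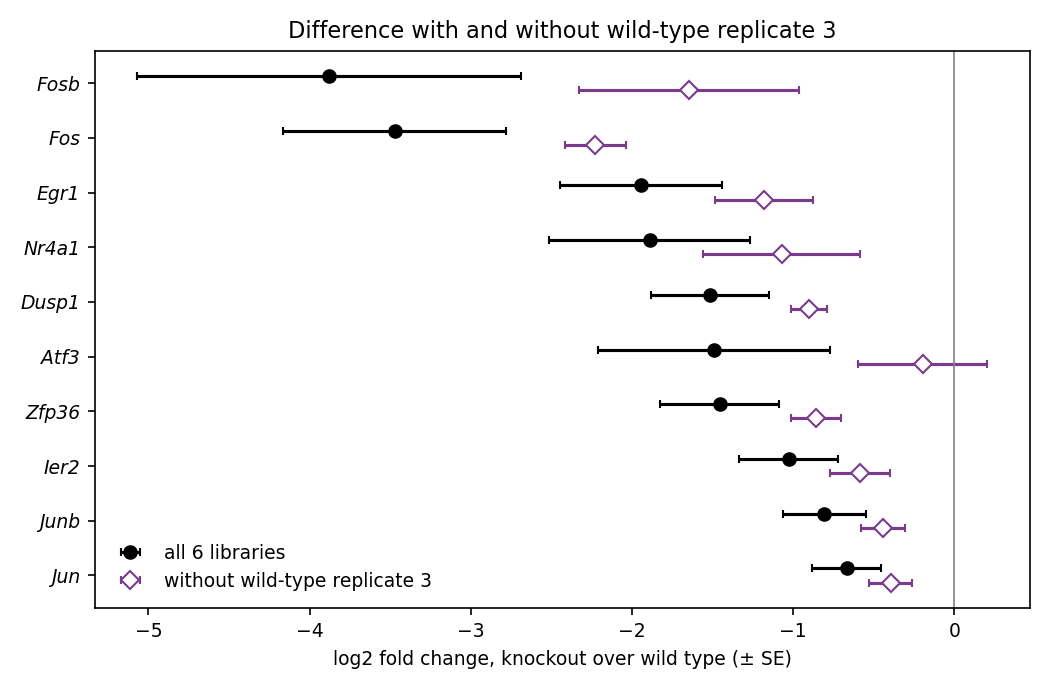
Log2 fold change (knockout over wild type, bars SE) of each member with all 6 libraries (filled circles) and without wild-type replicate 3 (open diamonds). All 10 values lie below 0 in both fits and are nearer 0 without that library, where Fos is at -2.23 and Atf3 at -0.20.

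The members varied together across the 6 libraries, but their order within the knockout group differed. Over the 6 libraries, Pearson's r of log2 CPM between pairs of members had a median of 0.93 over 45 pairs and ran from 0.69 to 0.99. These values describe 6 libraries that share the group difference and the high wild-type replicate 3. Among the knockout libraries no library was highest throughout: knockout replicate 1 was highest for Fos, Egr1, Dusp1 and Zfp36, replicate 2 for Fosb, Jun, Junb, Atf3 and Nr4a1, and replicate 3 for Ier2. Dusp1 spanned only 1.07-fold within the knockout, Egr1 2.08-fold, Nr4a1 2.76-fold and Fosb 5.77-fold.

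The 8 genes outside the list whose log2 CPM followed Fos most closely over the 6 libraries had r from 0.98 to 0.99, out of 12593 genes considered. With 6 libraries and that many genes, an r this high does not show a link to Fos. Fos was chosen by this contrast, so genes picked for following it tend to be lower in the knockout too, and their differences support nothing. Most of the 8 genes differed little between the groups. Orc3, a subunit of the origin recognition complex, had the highest r (0.99) but ranged only from 54.7 to 64.3 CPM, with a log2 fold change of -0.14. Zfp868, Coprs, Nucb2, Pacrgl and Rangrf had log2 fold changes from -0.35 to -0.26, and Irf7, a transcription factor of the interferon response, -0.54. Ier3, itself an immediate early gene, was at 61.2, 71.9 and 132 CPM in the wild type and at 43.2, 43.7 and 47.8 CPM in the knockout, with a log2 fold change of -0.98 ± 0.27.

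Levels of different genes were compared per transcript length, in TPM (reads per base of transcript, scaled to the same total in each library), computed with the longest annotated transcript. Averaged over the 6 libraries, Junb had the highest level of the members (293 TPM), followed by Jun (195), Egr1 (124), Dusp1 (121), Fos (110.2), Zfp36 (99.7), Ier2 (97.7), Atf3 (85.3), Nr4a1 (50.03) and Fosb (18.0). The order within the middle of this series depended on the library. Fos was at 401 TPM in wild-type replicate 3, above Jun at 274 TPM, and at 16.9 TPM in knockout replicate 3, below all other members but Nr4a1 (16.7 TPM) and Fosb (0.831 TPM).

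The makeup of the AP-1 families differed accordingly. The Fos family consists of Fos, Fosb, Fosl1 and Fosl2, of which Fosl1 and Fosl2 are members of the family but not of the list. Their summed level was 150.3, 201 and 566 TPM in the wild type and 86.2, 109.9 and 82.3 TPM in the knockout. Fos made up 57.1%, 56.3% and 70.9% of it in the wild type but 26.3%, 19.5% and 20.5% in the knockout. There Fosl2, the subunit also called Fra-2, made up 69.9%, 74.7% and 76.9%, against 38.6%, 37.2% and 14.1% in the wild type. Fosl2 itself was at 58.1, 74.5 and 79.9 TPM in the wild type and at 60.3, 82.1 and 63.3 TPM in the knockout, so its groups overlapped, and its log2 fold change was -0.13 ± 0.22. Fos and Fosb were chosen by this contrast and Fosl2 was not. The smaller share of Fos and the larger share of Fosl2 in the knockout are therefore a description and support nothing.

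Within the Jun family, Jund, the subunit known for its steady expression, was the largest part in every library, with 39.9% to 45.4% of the summed level in the wild type and 48.8% to 51.5% in the knockout. Jund was at 236, 252 and 364 CPM and at 218, 238 and 241 CPM, with overlap, and at -0.29 ± 0.20 on the log2 scale (edgeR adjusted p = 0.666). Transcripts of the Jun family outnumbered those of the Fos family in all 6 libraries, 6.32-fold, 4.68-fold and 2.16-fold in the wild type and 8.30-fold, 7.33-fold and 9.14-fold in the knockout. Since this contrast chose Fos, Fosb, Jun and Junb, nothing is read from the group difference in these ratios or in the share of Jund.

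**Figure D3:**
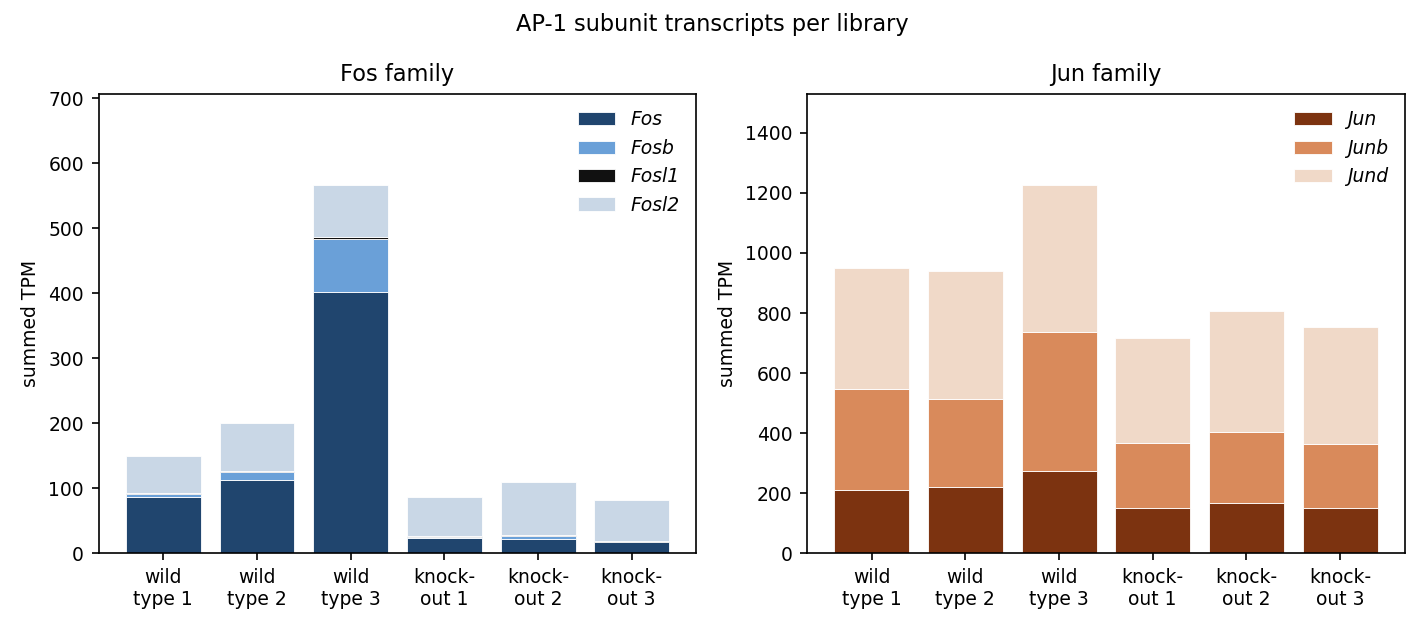
Summed TPM of the Fos family (left) and Jun family (right) in each library, stacked by gene. Fos and Fosb are tall in wild-type replicate 3, Fosl2 is the largest part of the Fos family in the 3 knockout libraries, and Jund is the largest part of the Jun family throughout.

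Other genes of the pathway were taken from 6 lists of related genes. None of these genes passed an adjusted p of 0.05 with edgeR, and DESeq2 called 1 of them, Ccn1. Of all genes tested, 52.3% had a fold change below 0, and 49.3% of the 19368 tested without wild-type replicate 3. Of 33 tested immediate early genes outside the members, 27 had a fold change below 0, with a median of -0.24 on the log2 scale (-0.02 for all genes tested). At an unadjusted p under 0.05, 9 were lower and 0 higher (3.52% and 4.38% of all genes), and 8 had groups without overlap on the lower side and 0 on the higher (7.2% and 8.95% of all genes). Ccn1, a matricellular protein induced through SRF and YAP, was at 297, 378 and 538 CPM and at 155, 93.2 and 139 CPM, a log2 fold change of -1.65 ± 0.28 (edgeR adjusted p = 0.627; DESeq2 adjusted p = 4.72e-05). Its relative Ccn2, on the same list, went the other way at 0.53 ± 0.23, with overlap, and at 0.43 without wild-type replicate 3. Plk2, a polo-like kinase, was at -0.59 ± 0.16, Ier3 at -0.98 ± 0.27 and Sik1, a salt-inducible kinase, at -0.56 ± 0.20. These 3 genes had no overlap (edgeR adjusted p = 0.627 for each).

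These immediate early genes also followed wild-type replicate 3, which was the highest library for 25 of the 33. Without it the list median was -0.08, with 18 of the 33 below 0, near the share of all genes, and 3 lower at an unadjusted p under 0.05 (4.92% of all genes). Among relatives of the members, Egr2 went from -0.91 ± 0.38 to -0.31 and Egr3 from -0.29 ± 0.57 to 0.36. Nr4a2 went from -1.01 ± 0.52 to -0.21 and Nr4a3 from -0.43 ± 0.97 to 1.35, whereas Ier5l, related to Ier2, went from -0.36 ± 0.16 to -0.40. Ccn1 stood at -1.38 without that library, Plk2 at -0.45, Ier3 at -0.56 and Sik1 at -0.37.

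Of 14 tested subunits among the other AP-1 and related bZIP genes, 8 were below 0, with a median of -0.07 and 0.11 without wild-type replicate 3. At an unadjusted edgeR p under 0.05, 0 were lower and 1 was higher (3.52% and 4.38% of all genes). Maf, a large Maf protein, was at 108, 124 and 125 CPM in the wild type and at 150, 151 and 190.1 CPM in the knockout, with a log2 fold change of 0.46 ± 0.15 (edgeR adjusted p = 0.627), the reverse of the members. Jdp2, a repressor that dimerises with Jun proteins, was at 0.39 ± 0.24 and Atf7 at 0.27 ± 0.18, both with overlap (edgeR adjusted p = 0.656 and 0.662).

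Among genes that carry signals to the promoters, of 22 tested MAP kinase, SRF and CREB pathway genes, 14 were above 0, with a median of 0.16 and 0.19 without wild-type replicate 3. At an unadjusted edgeR p under 0.05, 0 were lower and 1 was higher (3.52% and 4.38% of all genes). Mrtfb, a coactivator of SRF, was at 0.32 ± 0.13 and the kinase Rps6ka3 at 0.29 ± 0.17, whereas Mapk8 (JNK1), which phosphorylates Jun, was at -0.26 ± 0.13. None of these 3 genes passed (edgeR adjusted p = 0.627, 0.649 and 0.627), and none overlapped between the groups. Of the 22 genes, 1 had groups without overlap on the lower side and 3 on the higher (7.2% and 8.95% of all genes). RNA levels of kinases say nothing of their activity.

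Feedback inhibitors of the same signals had 12 of 18 below 0, with a median of -0.20 that became 0.0016 without wild-type replicate 3. At an unadjusted edgeR p under 0.05, 2 were lower and 0 higher (3.52% and 4.38% of all genes). Groups without overlap were found for 3 genes on the lower side and 2 on the higher (7.2% and 8.95% of all genes). Socs3, an inhibitor of cytokine signalling, was at -0.43 ± 0.17, Spry2 at -0.40 ± 0.17 and the phosphatase gene Dusp10 at -0.54 ± 0.25. Dusp4, a phosphatase of the same family as the member Dusp1, stood on the other side at 0.74 ± 0.35, with 4.14, 9.85 and 11.1 CPM in the wild type and 12.4, 14.6 and 15.1 CPM in the knockout. Without wild-type replicate 3 the 4 genes stood at -0.26, -0.24, -0.32 and 1.01, in the same order. None of them passed with all libraries (edgeR adjusted p = 0.627 for each).

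Of 16 tested genes often named as AP-1 targets, 9 were below 0, with a median of -0.03 and 0.16 without wild-type replicate 3. Groups without overlap were found for 0 of the 16, beside 7.2% of all genes on the lower side and 8.95% on the higher. Ccl2, a monocyte chemokine, was at -0.86 ± 0.35, Il6 at -1.49 ± 0.91, Lif at -0.49 ± 0.29 and the protease Mmp3 at 0.67 ± 0.35 (edgeR adjusted p = 0.627, 0.653, 0.649 and 0.638). Ccl2 was the 1 gene of the list with an unadjusted edgeR p under 0.05, beside 3.52% of all genes lower and 4.38% higher. Without wild-type replicate 3, Ccl2 stood at -0.46. Il6, at 1.69, 0.89 and 7.17 CPM in the wild type and at 0.34, 0.73 and 2.38 CPM in the knockout, stood at -0.15 without that library, Lif at -0.20 and Mmp3 at 0.56.

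Heat shock genes, a second group that tissue stress induces, had 6 of 8 above 0 and a median of 0.11 (0.34 without wild-type replicate 3). The inducible chaperones Hspa1a and Hspa1b were at 0.23 ± 0.16 and 0.35 ± 0.18, and their cochaperone Bag3 at 0.29 ± 0.19 (edgeR adjusted p = 0.676, 0.638 and 0.664). Hspa8, a constitutive chaperone, was at -0.20 ± 0.24 (edgeR adjusted p = 0.791) and at 0.03 without wild-type replicate 3. At an unadjusted edgeR p under 0.05, 0 of the 8 were lower and 0 higher (3.52% and 4.38% of all genes).

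**Figure D4:**
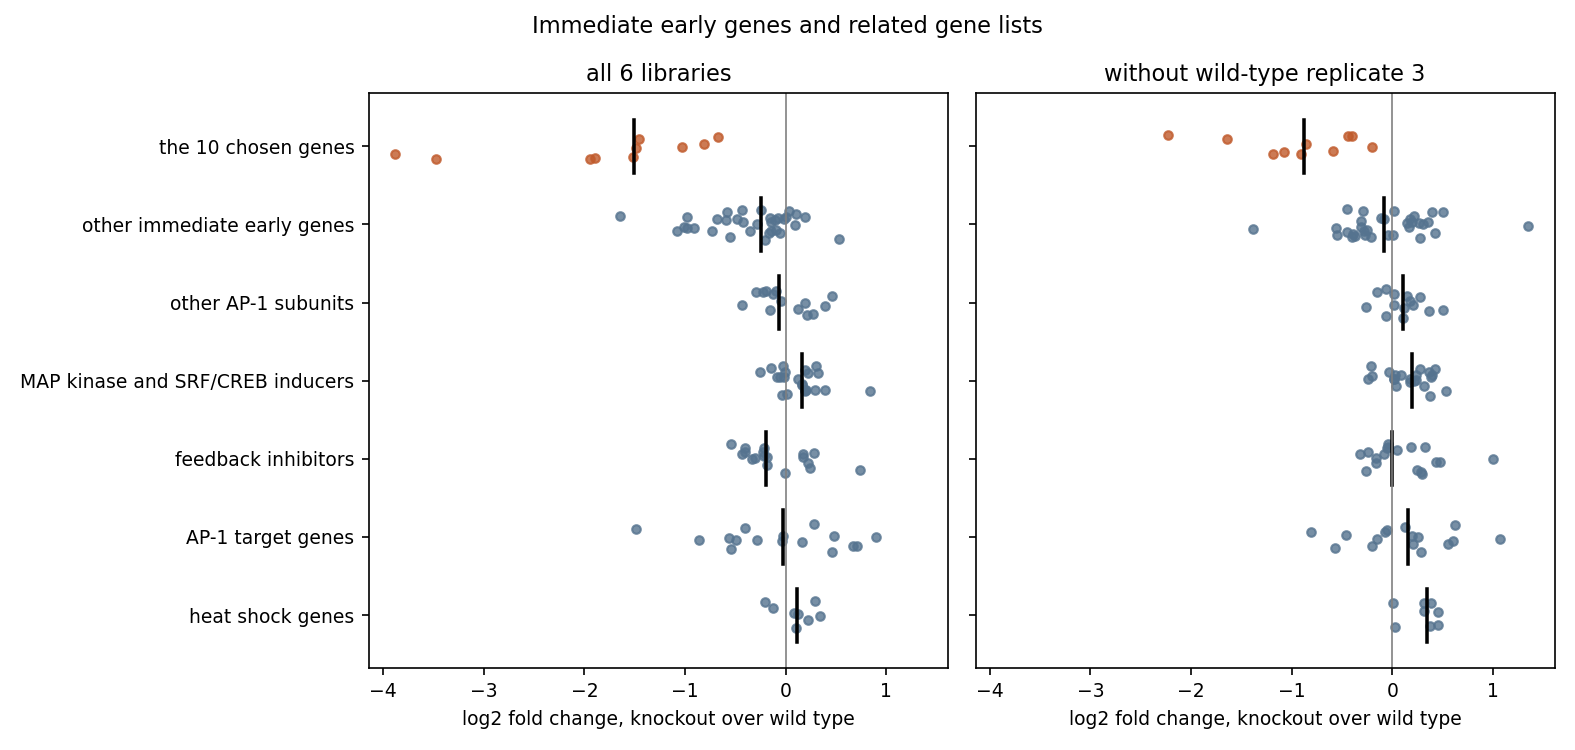
Log2 fold changes (knockout over wild type) for the 10 members (orange) and of the genes of 6 related lists (blue), with all 6 libraries (left) and without wild-type replicate 3 (right); the black line is the median. The members' median moves from -1.50 to -0.88 and that of the other immediate early genes from -0.24 to -0.08.

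Library and tissue measures stood beside these results as follows. Library totals were 38738204 to 51932509 counts, so each member rested on at least 59 counts (Fosb in knockout replicate 3). The 8 kidney tubule markers were detected in all 6 libraries, but their summed level was uneven. It was 2771, 5917 and 5510 CPM in the wild type and 6499, 4530 and 1513 CPM in the knockout. Of 9 marker lists, 3 had summed levels that did not overlap between the groups. The macrophage list of 5 genes, all detected in each library, stood at 1015 to 1115 CPM in the wild type and 1280 to 1566 CPM in the knockout. The lymphocyte list of 5 genes, all detected in each library, stood at 13.1 to 17.4 and 58.0 to 121 CPM. The skeletal muscle list of 5 genes, of which Myh4, Myh1, Ckm and Myl1 were at 0 in at least 1 library, stood at 4.30 to 4.92 and 0.258 to 0.570 CPM. Wild-type replicate 3 was lowest in the fibroblast and smooth muscle list (853 CPM, against 1201 to 1956 CPM in the other wild-type libraries) and lowest of the wild type in the neutrophil, red blood cell, adipocyte and endothelial lists. The part of cell makeup in the members' difference was not tested.

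The members lie on 8 chromosomes (GRCm38, RefSeq coordinates). Fos lies on chromosome 12 at 85473890 to 85477274, Jun on chromosome 4 at 95049036 to 95052222, Egr1 on chromosome 18 at 34861207 to 34864956, Atf3 on chromosome 1 at 191170296 to 191183333, Dusp1 on chromosome 17 at 26505591 to 26508472 and Nr4a1 on chromosome 15 at 101253902 to 101274795. Fosb (19302696 to 19310118) and Zfp36 (28376784 to 28379228) share chromosome 7, and Junb (84976909 to 84978748) and Ier2 (84661331 to 84662852) share chromosome 8. Jun, Junb and Ier2 have a single exon, as do 3.55% of the tested genes. The members' longest transcripts had a median of 2433 nt, against 3142 nt for all tested genes with a length. With the trend on transcript length removed, the log2 fold changes ran from -3.91 (Fosb) to -0.68 (Jun), close to the values without that correction.

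The 3' UTR was examined for the heptamer TATTTAT, the core of the AU-rich elements that Zfp36 binds. It occurred in 6 of the 10 members (3 copies in Zfp36 and Dusp1, 2 in Fos, and 1 in Fosb, Jun and Atf3) and in 29.2% of the 15384 tested genes with a 3' UTR. Among all tested genes, the 1613 with at least 2 copies had a median of 0.04 on the log2 scale, and the 10897 without a copy had -0.0037.

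Because the knockout lacks miR-92b, the 3' UTRs were also searched for its seed. The mature microRNA, from RefSeq, has its seed (bases 2 to 8) in capitals below, and the capitals in the 3 members mark the matching 7 bases (TGCAATA, a 7mer-A1 match to bases 2 to 7 followed by A).
miR-92b-3p: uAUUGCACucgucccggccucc
Jun: ttacaaacTGCAATAgagactgt
Dusp1: aggagcaaTGCAATAactctggg
Zfp36: ttccaagaTGCAATAacccattt

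The matches lay at chromosome 4, 95049901 to 95049907 (Jun), chromosome 17, 26506208 to 26506214 (Dusp1), and chromosome 7, 28377427 to 28377433 (Zfp36), all on the minus strand. None of the 10 members held the longer 8mer or 7mer-m8 match, and 7 held no match of these kinds. Of all tested genes with a 3' UTR, 13.4% held at least 1 match of these kinds. The 3 members with a match stood at -0.67 (Jun), -1.52 (Dusp1) and -1.46 (Zfp36) on the log2 scale. All 10 members were chosen by this contrast, so their fold changes say nothing about an effect of the match. A match of letters is a description.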

How the data were processed

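The deposited table holds raw read counts for each gene symbol, with a column for each of the 6 libraries. Per the submitters' processing notes, the build was GRCm38 (mm10). Neither the aligner nor the counter nor the strand setting is given in the sources used here, so genes that overlap may share counts. Knockout columns give the parts of the labelled name in another order and were matched by those parts and the number.

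Genes were filtered with filterByExpr (18927 kept, 99.96% of counts), scaled by TMM and compared with the edgeR 4.0.16 quasi-likelihood F test (robust, group only) in R 4.3.3, with Benjamini-Hochberg adjustment over all genes tested and a threshold of 0.05. Each SE was taken from the fold change and its F statistic. Replicates had a biological coefficient of variation of 26.9%. For log2 CPM the prior count was 2. The pipeline was tested on simulated data with planted changes. It recovered 4 of 67 changes of 1.5-fold, 32 of 67 of 2-fold and 62 of 66 of 4-fold, with 5 other calls. A gene that was not called may therefore still differ between the groups. DESeq2 1.42.0, limma-voom (limma 3.58.1), other scalings and filters, a length correction, the replicate block and left-out libraries were alternatives. No pair of libraries was a copy (lowest chi-square per degree of freedom 31.1).

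The members and the gene lists were chosen with earlier results of these data known. All members were named. From each related list the 4 genes with the smallest p and at least 1 CPM in a group were named, and the 8 genes most like Fos in log2 CPM, with at least 5 CPM and without predicted genes. A gene that this rule names is not reported here. Further genes (Fosl1, Fosl2, Egr2, Egr3, Nr4a2, Nr4a3, Ier5l and Ccn2) were named after their values were seen. Transcripts and 3' UTRs came from GENCODE M21 (longest per symbol), promoters and the microRNA from RefSeq GRCm38.p6. Protein sequences were not used here.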

Additional observations from a re-analysis of the deposited data

How the results depend on the processing

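The members stayed below 0 in 159 of 160 values (10 genes under 16 alternatives). The exception was Atf3, which reversed to 0.053 once replicate 3 was dropped from each group. Their median ran from -1.84 to -0.88 when single libraries were left out, and 8 to 10 members then had groups without overlap. The share over all genes was computed only without wild-type replicate 3 (16.1% on the lower side). Since this contrast chose the members, nothing is read from these values.

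Over all genes tested, 0 were called higher and 0 lower with edgeR. DESeq2 called 34 higher and 28 lower, limma-voom 1 higher and 2 lower, and edgeR without the filter 1 higher and 1 lower. Dropping replicate 3 from each group gave 1 called higher, and with single libraries left out 0 to 1 were called higher and 0 to 0 lower. With the replicate block 1 was called higher. Deviations of same-numbered libraries from their group means correlated at -0.37, 0.27 and -0.35, and only replicate 2 matched its own number best. With 3 libraries per group, these values cannot show whether same-numbered libraries were handled together. With the replicate block all 10 members stayed below 0, with Fosb at -2.67 and Atf3 at -0.91.

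The median of the other AP-1 subunits reversed to 0.032 with the length trend removed and to 0.0997 with replicate 3 dropped from each group, and ran from -0.080 to 0.11 with single libraries left out. That of the feedback inhibitors reversed to 0.055 with replicate 3 dropped from each group and ran from -0.28 to 0.0016. The AP-1 targets ran from -0.21 to 0.16, the heat shock genes from -0.039 to 0.34, and the MAP kinase and SRF/CREB genes from 0.025 to 0.19, with 0.095 when the length trend was removed. The other immediate early genes ran from -0.38 to -0.08, and DESeq2 called 1 of them (Ccn1). Hspa8 reversed to 0.038 with replicate 3 dropped from each group and ran from -0.32 to 0.030 with single libraries left out. The cause of these shifts was not tested.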
